A study of Mus musculus with 47 samples.

Results

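The nuclear-encoded respiratory chain genes were taken as every gene whose name begins with Nduf, Uqcr, Atp5 or Cox4 to Cox8, together with Sdha, Sdhb, Sdhc, Sdhd, Cyc1 and Cycs. This rule found 94 of the 24421 genes in the count tables, and 88 of them had enough counts to enter the test, in which 12863 genes were tested. By prefix, 45 of the 94 genes belonged to complex I, 4 to complex II, 9 to complex III, 18 to complex IV and 17 to complex V, and Cycs stood alone as cytochrome c. The prefixes also took in genes that are not subunits of the complex they are named for, among them the 7 Ndufaf assembly factors, Atp5sl, now known as an assembly factor of complex I, and Ndufa4, now placed with complex IV.

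The study isolated muscle fibres of FVB/N mice at an age of 2 to 3 months from the EDL (extensor digitorum longus), a leg muscle made mostly of fast fibres. Its 47 libraries comprised 27 fibres of wild-type (WT) animals and 20 of C2KO animals, in which exons of Mybpc2, encoding the fast form of myosin binding protein-C, were replaced by a loxP-flanked Neo cassette, a deletion carried by every cell and not by muscle alone. Each sample was 1 fibre released with collagenase, the labels name 3 WT and 2 C2KO mice, and no label ties a fibre to a mouse. Counts were summed into WT pools 1, 2 and 3 (10, 10 and 7 fibres, 1 sequencing run each) and into C2KO pools 740 and 2445 (10 fibres each, by fibre-name prefix), so a p-value here reflects only how these pools vary, which may be technical. Pool values are TMM-scaled CPM, the counts of a gene per 1000000 counts of the pool, and levels are compared between single genes as TPM, in which counts are first divided by exon length. Values of single fibres, and medians or ranges over fibres, are CPM by the fibre's own total without TMM, so they are on another scale than pool values.

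Libraries held between 7648762 and 14606631 gene counts, and pools between 56732442 and 131497320. Mybpc2 was at 6563 CPM or more in every WT fibre and at 47.6 CPM or less in every C2KO fibre, which matched the labels. Myh4, the myosin of type IIb fast fibres, was at 28821 CPM or more in every fibre, so each fibre carried this type IIb marker, though at differing levels. Summed fibroblast markers, 12 genes all with counts in both genotypes, ran from 0.378 to 375 CPM over WT fibres and from 0.0957 to 5348 CPM over C2KO fibres. The 12 endothelial markers summed to at most 5.08 CPM in a WT fibre, with Vwf at 0, and to at most 120 CPM in a C2KO fibre. The highest fibre for each of these lists was in pool 740. Run was nearly confounded with genotype, since run 0092 alone held fibres of both (the 7 fibres of WT pool 3 and 1 of pool 740), so genotype and run cannot be told apart in the pools.

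The respiratory chain passes electrons from NADH (complex I) and succinate (complex II) through complex III and the mobile carrier cytochrome c to oxygen at complex IV, and complex V uses the proton gradient so built to make ATP. Most subunits are encoded in the nucleus and imported, while a small core is encoded by mitochondrial DNA. Fast type IIb fibres rely largely on glycolysis and are poorer in these complexes than slow fibres, and several complex IV subunits have a form specific to striated muscle. Mitochondrially encoded subunits were absent from the gene table and were not analysed here.

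No respiratory chain gene passed the test between C2KO and WT fibres, and most were slightly higher in C2KO. With edgeR, 0 of 88 members had both a 1.5-fold difference and an adjusted p below 0.05, the threshold for a call, against 0.0466% of all tested genes. At an unadjusted p under 0.05, 8 members were higher, where 6.2% of all tested genes were, and 1 was lower, where 4.13% of all tested genes were. limma-voom and DESeq2 on the pools also called 0 members, and without the fold threshold DESeq2 alone gave a member with an adjusted p under 0.05, Ndufaf1. The log2 fold change was above 0 in 76 members and below 0 in 12, with a median of 0.12, while the median of all tested genes was -0.00038. The standard error (SE) of a single member had a median of 0.105, and no member differed by more than 0.52.

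Complex IV had the highest median fold change of the complexes in this fit. Its 14 tested members had a median log2 fold change of 0.23 and ran from -0.05 (Cox7a2l) to 0.47 (Cox6a1). The medians of complex I (43 members), complex II (4), complex III (9) and complex V (17) were 0.10, 0.07, 0.12 and 0.12. Every tested member of complexes II and III was above 0, while 7 members of complex I and 4 of complex V were below it. The difference between complexes was not tested, and the order changed with run as a term, where the median of complex III was 0.54 and that of complex IV 0.45.

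**Figure D1:**
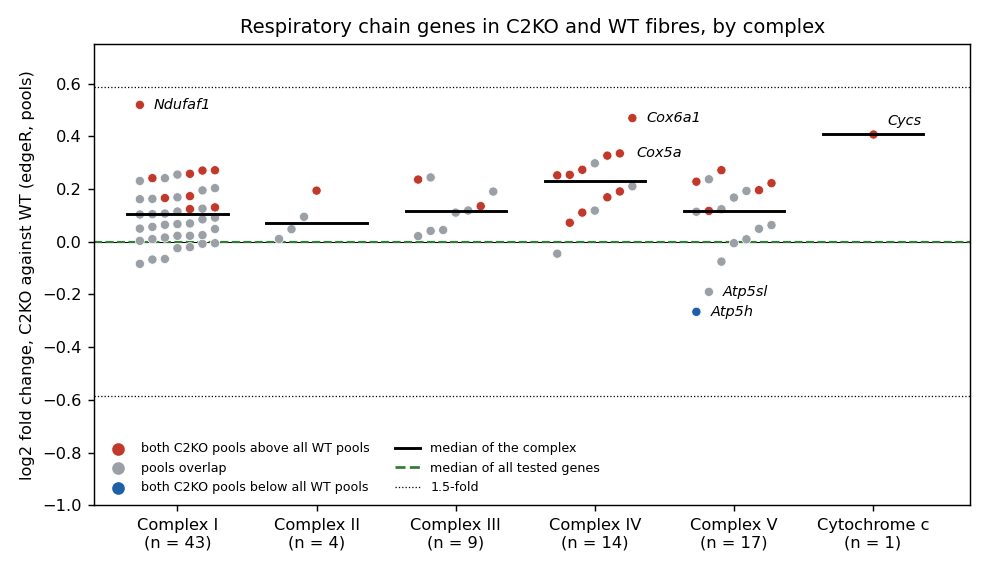
Log2 fold change of C2KO against WT (edgeR on 3 WT and 2 C2KO pools) for the 88 tested members, 1 point each, by complex, with black bars at the median of each complex, a dashed line at the median of all tested genes and dotted lines at a 1.5-fold difference. All points lie within 1.5-fold, most complex IV points are red (both C2KO pools above every WT pool), and Atp5h is the single blue point.

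The pools themselves were separated for part of the members. Both C2KO pools lay above all 3 WT pools for 28 members, 31.8% of those tested, against 13.1% of all tested genes, and both lay below for Atp5h alone, against 14.5% of all tested genes. Of the 28, 10 were among the 14 tested members of complex IV, 9 of 43 in complex I, 5 of 17 in complex V, 2 of 9 in complex III and 1 of 4 in complex II, with Cycs as the last. These counts depended on the scale. With library size alone in place of TMM, 14 members were separated upwards and 3 downwards, where 10.7% and 16% of all tested genes were. In TPM, 9 members (10.2%) were separated upwards, near the 8.33% of all tested genes, and 6 (6.82%) downwards, where 20.8% of all tested genes were. The 9 were Cox5a, Cox5b, Cox6a1, Cox6b1, Cox7c, Uqcrq, Atp5j, Ndufaf1 and Ndufb5, of which 5 are subunits of complex IV.

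The WT pools differed among themselves by as much as the genotypes did. WT pool 3 was above WT pools 1 and 2 for 68 of 88 members, against 33.6% of all tested genes, and its median log2 ratio to their mean was 0.17 over the members and -0.01 over all tested genes. By complex this ratio was 0.18 for complex I, 0.10 for complex II, 0.13 for complex III, 0.21 for complex IV and 0.17 for complex V. Without WT pool 3 the median log2 fold change of the members was 0.16 and 61 of them were separated upwards, where 20.4% of all tested genes were. Without WT pool 1 the median was 0.08, with 28 separated upwards and 7 downwards, where 19.8% and 20.1% of all tested genes were. Leaving out a pool raised the share of separated genes in general. Upwards, 32 members were separated without WT pool 2, 53 without C2KO pool 740 and 42 without C2KO pool 2445, against 16.6%, 28.2% and 31.1% of all tested genes. Downwards, 1 member was separated without WT pool 2 and 1 without WT pool 3, against 18.7% and 21.1% of all tested genes, and 3 without pool 740 and 6 without pool 2445, against 28.8% and 32.8%. Within run 0092 the single C2KO fibre could be set beside 7 WT fibres, with no replicate. It lay above all 7 for 65 members (33 of 43 in complex I, 9 of 9 in complex III, 9 of 14 in complex IV and 10 of 17 in complex V), where 14.5% of all tested genes did, and below all 7 for Cox6a2 alone, where 14.7% of all tested genes did. That fibre had the highest summed member level of all 47 fibres, 44558 CPM, against 30150 to 40796 CPM in the 7 WT fibres.

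Summed over all 94 genes, the respiratory chain took 3.01%, 3.16% and 3.46% of the counts of WT pools 1, 2 and 3, and 3.54% and 3.32% of those of C2KO pools 740 and 2445. The C2KO shares fell on either side of that of WT pool 3. In TMM-scaled CPM the WT pools averaged 31947 ± 2035 (SD, n = 3) for this sum, and the C2KO pools 34539 ± 706 (SD, n = 2). The order of the complexes depended on the unit, since complex V was the highest in CPM in every pool and complex I in TPM. In TPM complex IV exceeded complex V in every pool, at 19739 against 17712 in WT pool 1 and 23105 against 17806 in pool 2445. In CPM complex IV was at 5783, 5728 and 6743 CPM in the WT pools and 6642 and 7519 CPM in C2KO pools 740 and 2445, so the genotypes overlapped. Of the CPM sum, complex I held between 30.8% and 31.2% in the 5 pools. Complex V held 33.6%, 33.2% and 32.2% in the WT pools and 32.2% and 31.0% in pools 740 and 2445, with both C2KO pools below every WT pool, pool 740 by under 0.1 percentage points. Complex IV held between 18.3% and 19.7% in the WT pools, 19.5% in pool 740 and 21.5% in pool 2445.

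Single fibres of the genotypes overlapped for every complex. The summed level of all members ran from 24925 to 42922 CPM over WT fibres (median 31734) and from 28804 to 44558 CPM over C2KO fibres (median 33338). For complex IV the WT fibres ran from 4815 to 10023 CPM with a median of 5911, and the C2KO fibres from 5440 to 8383 CPM with a median of 7005. The medians of complex IV over the fibres of each pool, without TMM, were 5739, 5312 and 6655 CPM in WT and 6935 and 7133 CPM in C2KO. The highest WT fibre, s59_17717 of WT pool 2, also had the lowest Myh4 of all fibres, 28821 CPM. Complexes varied together from fibre to fibre. Within pools of 7 to 10 fibres, Spearman's rho between the sums of complexes I and III ran from 0.93 to 1.00, that between complexes I and V from 0.82 to 0.96, and that between complexes II and IV, the loosest pair, from 0.54 to 0.85. The sums of 1 fibre share its library, so these values are descriptive. Myoglobin (Mb), the oxygen store of oxidative fibres, correlated with the sum at a rho of 0.26 to 0.95 within pools, and Myh4 at -0.92 to -0.03.

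**Figure D2:**
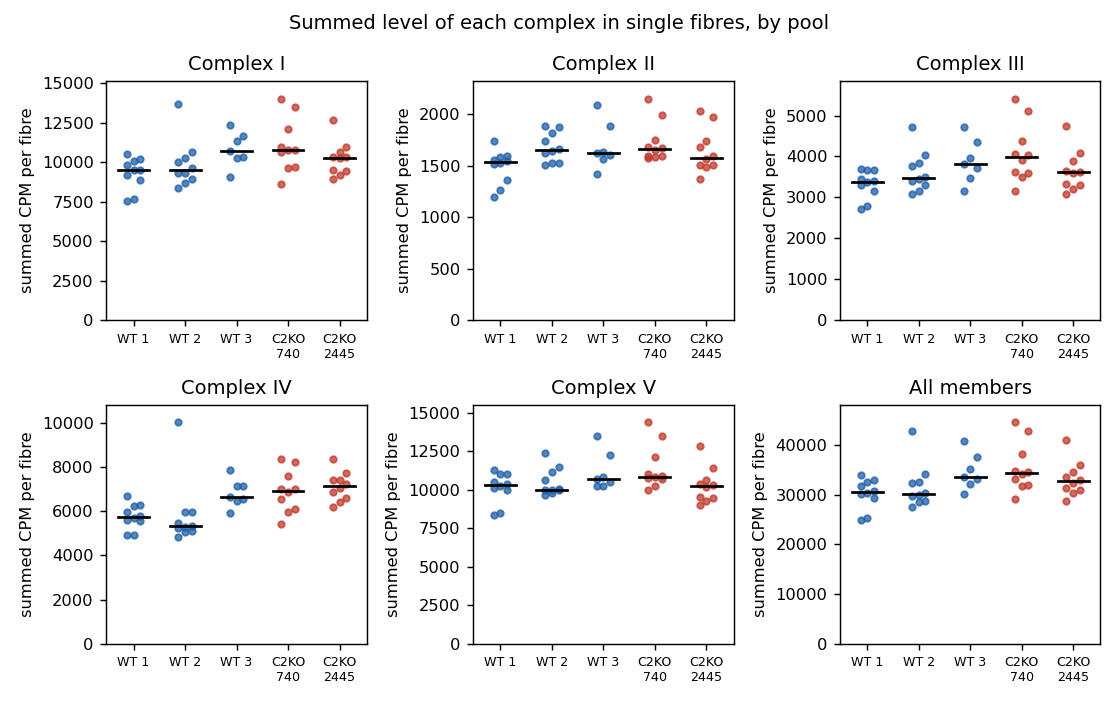
Summed CPM per fibre (y axis, from 0) for complexes I to V and for all 94 members, by pool; each point is 1 fibre, each bar is the pool median, WT is blue and C2KO is red. Fibres of the genotypes overlap in every panel, the medians of WT pool 3 lie nearer to both C2KO medians than those of WT pools 1 and 2 for complexes I and IV, and WT fibre s59_17717 stands alone at 10023 CPM in complex IV.

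The members differed with exon length, and so did other genes. The 31 tested members with at most 600 bp of exon had a median log2 fold change of 0.19, the 22 of over 600 and up to 1000 bp 0.12, the 26 of up to 2000 bp 0.11, and the 9 longer ones 0.05. Among other tested genes with a mean of at least 100 CPM, the medians of the same classes were 0.12 (16 genes), 0.08 (59), 0.03 (251 genes) and 0.01 (419). The ratio of WT pool 3 to WT pools 1 and 2 had the same order, from 0.22 in the shortest members to 0.06 in the longest. Of the tested complex IV members, 8 were at most 600 bp long (median 0.26) and 6 were longer (median 0.18). The medians of complex I were 0.13 for its 13 short members and 0.09 for its 30 longer ones. The part of length in the difference was not tested.

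**Figure D3:**
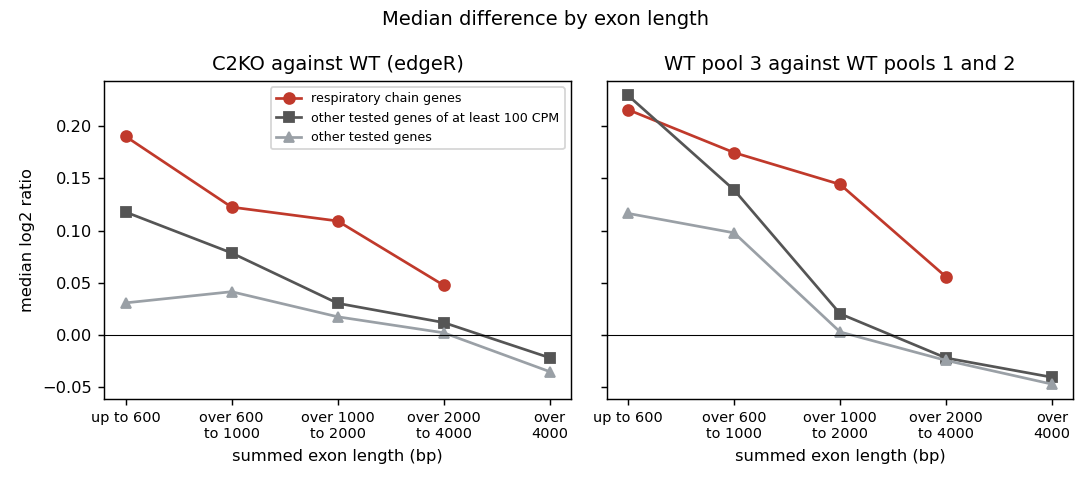
Median log2 ratio (y axis) by summed exon length (x axis, bp) for the respiratory chain genes, other tested genes of at least 100 CPM and all other tested genes, for C2KO against WT (left) and for WT pool 3 against WT pools 1 and 2 (right). In both panels the medians of the respiratory chain genes and of genes of at least 100 CPM are highest in the shortest class, and the respiratory chain line lies above the others except at the shortest class on the right, where genes of at least 100 CPM reach 0.23.

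Complex I is the NADH dehydrogenase. Its 36 tested members outside the Ndufaf genes had a median of 653 TPM, and the 7 Ndufaf genes, which encode factors that assemble the complex and leave it, a median of 28.2 TPM. Ndufa4 was the highest at 2105 TPM on average over the pools, followed by Ndufb9, an accessory subunit of the membrane arm, at 1706 TPM. Ndufa4 was at 467, 481 and 563 CPM in the WT pools and at 609 and 582 CPM in C2KO pools 740 and 2445, which did not overlap (log2 fold change 0.24, SE 0.11, edgeR adjusted p = 0.504). Ndufb9 was at 540, 552 and 584 CPM in WT and 599 and 623 CPM in C2KO, also without overlap (0.13 with an SE of 0.08, edgeR adjusted p = 0.619).

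Ndufaf1 (chromosome 2, 119655451 to 119662798), an assembly factor of the membrane arm, had the largest difference of all members. It was at 25.2, 28.4 and 29.5 CPM in the WT pools and at 44.1 and 35.3 CPM in C2KO pools 740 and 2445, with a log2 fold change of 0.52 (SE 0.13, unadjusted p = 0.0069, edgeR adjusted p = 0.409), so it did not pass the test. The pools did not overlap, while single fibres did, from 20.6 to 39.1 CPM in WT and from 21.02 to 70.5 CPM in C2KO. Within run 0092 the C2KO fibre was at 56.3 CPM and the 7 WT fibres at 22.6 to 39.1 CPM. The 7 Ndufaf genes together had a median log2 fold change of 0.02. At the other end of the complex, Ndufa2 was at 229, 231 and 230 CPM in WT and 196 and 237 CPM in C2KO (-0.08 with an SE of 0.10, edgeR adjusted p = 0.818), with C2KO pools on either side of WT.

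Ndufs5 could not be measured. It had 3 counts over all 47 fibres, and 484 of its 509 exon bases were shared on the same strand with BC002163, a gene with 39619 counts. The counting left out read pairs that overlap more than 1 gene, so no level is given for Ndufs5. BC002163 was at 72.1, 76.6 and 81.6 CPM in WT and 78.4 and 84.8 CPM in C2KO (0.09 with an SE of 0.10, edgeR adjusted p = 0.794). Ndufa4l2, a paralog of Ndufa4 that low oxygen induces, had 10 counts in WT and 28 in C2KO fibres and never exceeded 1.07 CPM in a fibre.

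Complex II, succinate dehydrogenase, is the only complex with no mitochondrially encoded subunit. Its median log2 fold change of 0.07 ran from 0.04 to 0.13 with a pool left out. Sdha, the flavoprotein that oxidises succinate, was at 674, 742 and 708 CPM in WT and 698 and 766 CPM in C2KO, and Sdhb, the iron-sulphur subunit, at 395, 418 and 424 CPM in WT and 423 and 457 CPM in C2KO. Both overlapped (log2 fold changes of 0.05, SE 0.09, edgeR adjusted p = 0.889, and 0.09, SE 0.08, edgeR adjusted p = 0.729). Of the membrane anchors, Sdhc was separated, at 180, 212 and 234 CPM in WT and 243 and 235 CPM in C2KO (0.19 with an SE of 0.12, edgeR adjusted p = 0.619), with less than 1 CPM between WT pool 3 and pool 2445. Sdhd was at 250, 294 and 301 CPM in WT and 287 and 280 CPM in C2KO, within the WT range (0.01 with an SE of 0.11, edgeR adjusted p = 0.984).

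In complex III, the cytochrome bc1 complex, the highest members per length were Uqcrb at 1683 TPM and Uqcr10 at 1554 TPM, small subunits outside the catalytic core. Uqcrb was at 359, 382 and 495 CPM in WT and 480 and 495 CPM in C2KO, so WT pool 3 lay at the C2KO level (0.24 with an SE of 0.15, edgeR adjusted p = 0.604). Uqcr10 was at 332, 339 and 368 CPM in WT and 382 and 366 CPM in C2KO (0.11 with an SE of 0.09, edgeR adjusted p = 0.686). Cyc1, the haem-bearing cytochrome c1, was at 373, 408 and 393 CPM in WT and 419 and 376 CPM in C2KO, nearly the same (0.02 with an SE of 0.09, edgeR adjusted p = 0.959).

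Cycs (chromosome 6, 50562563 to 50566474), the electron carrier cytochrome c, was at 183, 201 and 255 CPM in the WT pools and 301 and 264 CPM in C2KO pools 740 and 2445. The C2KO pools lay above all WT pools, with WT pool 3 next to them, and the log2 fold change of 0.41 (SE 0.15, unadjusted p = 0.0363, edgeR adjusted p = 0.458) did not pass the test. Fibres ran from 147 to 308 CPM in WT and from 209 to 388 CPM in C2KO. RefSeq names 3 pseudogenes of Cycs, and its counts came from uniquely mapped read pairs alone.

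Complex IV, cytochrome c oxidase, was dominated by the muscle forms of its subunits in both genotypes. Cox6a2, the heart and skeletal muscle form (chromosome 7, 128205435 to 128206366), was the highest of all members per length, at 6444 TPM on average, and exceeded the ubiquitous form Cox6a1 by 298.5, 316 and 404 times in TPM in the WT pools and by 223 and 351 times in C2KO pools 740 and 2445. Cox8b, the muscle form of that subunit, exceeded Cox8a by 62.5, 61.4 and 52.5 times in WT and by 52.2 and 61.9 times in C2KO. Cox7a1 was above Cox7a2 by only 2.39 to 2.72 times over the WT pools and 2.69 and 2.72 times in the C2KO pools. The lung and testis forms were at or near 0. Cox4i2 had 0 counts in the 27 WT fibres, which allows up to 0.0095 CPM (3 counts over the genotype, counting error alone), and 7 counts in 3 C2KO fibres. Cox6b2 had 12 counts in WT and 14 in C2KO, Cox7b2 had 1 and 0, and Cox8c had 0 in both, which allows up to 0.0155 CPM in C2KO.

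Cox6a1 (chromosome 5, 115345654 to 115348955) had the largest difference of the complex at a low level. It was at 5.33, 5.07 and 4.67 CPM in the WT pools and 7.55 and 6.37 CPM in C2KO pools 740 and 2445 (log2 fold change 0.47, SE 0.15, edgeR adjusted p = 0.432). The pools did not overlap, but the highest C2KO fibre, s740-5 at 19.9 CPM, was also the fibre with the highest sum of fibroblast, endothelial and pericyte markers, 5674 CPM, and the part of these cells was not tested. In the run that held both genotypes its C2KO fibre was at 3.40 CPM, inside the WT range of 2.37 to 7.32 CPM. More RNA from adhering cells and less RNA from the fibre itself cannot be told apart in such a library. Without the 3 fibres richest in these markers, all of pool 740, the median over all members was 0.14 and over complex IV 0.23. Then 36 members were separated upwards, Cox6a1 still among them, where 13.9% of all tested genes were.

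Among the abundant subunits of complex IV, Cox5a (chromosome 9, 57521232 to 57532426) differed most, at 560, 543 and 667 CPM in WT and 744 and 744 CPM in C2KO (0.34 with an SE of 0.11, edgeR adjusted p = 0.441), with a clear gap to WT pool 3. Its fibres overlapped, from 454 to 869 CPM in WT and from 538 to 984 CPM in C2KO. Cox7a1 was at 269, 256 and 319 CPM in WT and 347 and 324 CPM in C2KO (0.25 with an SE of 0.12, edgeR adjusted p = 0.514), and Cox7a2 at 210, 221 and 242 CPM in WT and 266 and 246 CPM in C2KO (0.19 with an SE of 0.10, edgeR adjusted p = 0.544). Both were separated by a few CPM from WT pool 3. Cox6b1, a peripheral subunit that faces cytochrome c, was at 399, 394 and 460 CPM in WT and 481 and 514 CPM in C2KO (0.25 with an SE of 0.10, edgeR adjusted p = 0.474).

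Cox6a2 itself was at 1967, 1979 and 2334 CPM in WT and 2080 and 2762 CPM in C2KO, so the genotypes overlapped (0.21 with an SE of 0.15, edgeR adjusted p = 0.655). Cox4i1, the core regulatory subunit, was at 546, 557 and 599 CPM in WT and 609 and 617 CPM in C2KO (0.11 with an SE of 0.08, edgeR adjusted p = 0.677). Cox8b was at 541, 524 and 541 CPM in WT and 557 and 568 CPM in C2KO, separated by a small gap (0.07 with an SE of 0.08, edgeR adjusted p = 0.783). Cox8a was at 13.0, 12.8 and 15.5 CPM in WT and 16.03 and 13.8 CPM in C2KO (0.12 with an SE of 0.13, edgeR adjusted p = 0.798). Cox7a2l, which joins complexes III and IV in supercomplexes, was the only tested gene of the complex below 0, at 36.3, 38.5 and 42.3 CPM in WT and 36.5 and 39.1 CPM in C2KO (-0.05 with an SE of 0.11, edgeR adjusted p = 0.917).

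**Figure D4:**
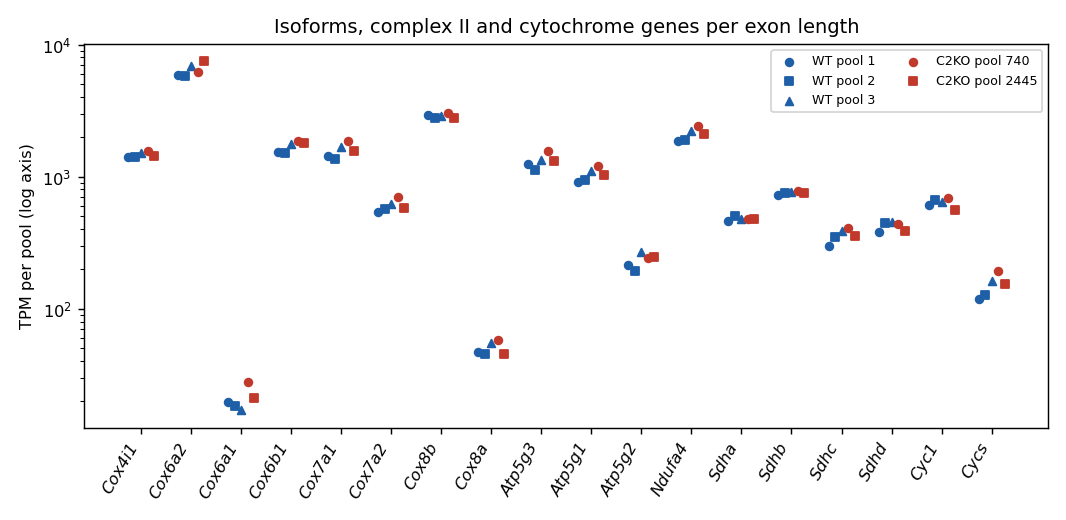
TPM per pool on a log axis for the isoforms of complexes IV and V, Ndufa4, the subunits of complex II, Cyc1 and Cycs, with WT pools in blue and C2KO pools in red. Cox6a2 lies over 2 orders of magnitude above Cox6a1 and Cox8b over 1 order above Cox8a in every pool, and the 5 pools lie close together for each gene.

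The promoters of the genes were read from RefSeq (GRCm38.p6, the build of mm10) as 250 bases before to 50 after each start, and 77 of the 94 genes were matched, 3 of them by an older symbol. Motifs were searched on both strands as exact letters. GCGCATGC, a core of the NRF1 site, was in 13 of the 77 promoters (16.9%) and in 3.05% of all 27025 genes with a promoter in the table. CCGGAAG, a core of sites for ETS factors such as GABPA, was in 17 (22.1%, against 9.93% of all), GATGGCGG, a YY1 core, in 7 (9.09% against 1.97%), AAGGTCA, a core of ERR sites, in 8 (10.4% against 5.38%), and TGACGTCA, the CRE, in 5 (6.49% against 2.03%). The GC box GGGCGG was in 35 (45.5% against 38.2%), and the TATA box TATAAA in 7 (9.09% against 15.7%). The median log2 fold change of tested members with and without each set of letters was 0.11 (13 genes) and 0.12 (61) for NRF1, 0.13 (17) and 0.11 (57) for ETS, 0.06 (7) and 0.12 (67) for YY1, 0.19 (7) and 0.11 (67) for ERR, 0.12 (5) and 0.11 (69) for the CRE, 0.12 (33) and 0.11 (41) for the GC box, and 0.04 (6) and 0.12 (68) for the TATA box. These differences were not tested. A match is a description of the letters in this window and no evidence of binding.

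The promoter of Cycs is shown for its NRF1 letters (in capitals, on the reverse strand, their first base at -60 relative to the start). Those of Cox8a and Cox8b are shown for the contrast between an ubiquitous and a muscle form. In Cox8a the capitals mark a pair of ETS matches, also on the reverse strand, from bases -5 and 33. In Cox8b they mark the letters TATAAA from base 5, so after the start and within the transcribed part of this gene model. All are written 5′ to 3′ on the strand of the gene, which is the minus strand for each. The windows are chr6:50566520-50566819 for Cycs, chr19:7217567-7217866 for Cox8a and chr7:140900397-140900696 for Cox8b. The Cycs window lies wholly outside the span of the counted Cycs gene given above. Its bases are thus numbered from the RefSeq start and not from that of the counted gene, while for Cox8a and Cox8b these starts agree.
Cycs: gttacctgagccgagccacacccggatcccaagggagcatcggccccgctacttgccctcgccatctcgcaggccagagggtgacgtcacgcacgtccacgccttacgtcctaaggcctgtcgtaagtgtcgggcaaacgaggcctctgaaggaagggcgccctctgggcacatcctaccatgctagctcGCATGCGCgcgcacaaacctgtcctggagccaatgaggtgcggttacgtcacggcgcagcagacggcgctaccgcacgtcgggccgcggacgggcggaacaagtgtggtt
Cox8a: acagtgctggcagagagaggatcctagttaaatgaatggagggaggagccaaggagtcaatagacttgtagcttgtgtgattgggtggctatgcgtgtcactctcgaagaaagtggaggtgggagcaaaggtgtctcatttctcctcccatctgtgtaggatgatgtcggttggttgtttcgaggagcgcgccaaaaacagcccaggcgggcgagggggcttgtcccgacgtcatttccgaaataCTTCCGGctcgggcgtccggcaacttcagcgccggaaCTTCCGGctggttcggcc
Cox8b: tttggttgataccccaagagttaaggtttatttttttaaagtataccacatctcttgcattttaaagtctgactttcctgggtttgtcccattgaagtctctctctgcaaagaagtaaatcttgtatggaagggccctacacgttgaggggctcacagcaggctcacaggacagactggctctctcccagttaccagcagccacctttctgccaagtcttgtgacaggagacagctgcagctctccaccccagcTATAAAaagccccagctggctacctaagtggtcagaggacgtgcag
The window of Cox8a held no TATA letters and that of Cox8b none of the other motifs searched, while Cycs held the CRE and a GC box besides. Per length, Cox8b was at 2884 TPM and Cox8a at 50.0 TPM on average over the pools.

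Complex V, the ATP synthase, held the most abundant catalytic subunit and the single gene that was lower in both C2KO pools. Atp5b, the catalytic beta subunit, was at 3312, 3368 and 3376 CPM in WT and 3346 and 3402 CPM in C2KO, with pool 740 inside the WT range (log2 fold change 0.01, SE 0.08, edgeR adjusted p = 0.981). Atp5e, the epsilon subunit of the central stalk, second in the complex at 1924 TPM, was at 370, 351 and 460 CPM in WT and 430 and 470 CPM in C2KO (0.19 with an SE of 0.13, edgeR adjusted p = 0.653), with WT pool 3 between the C2KO pools.

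Atp5h (chromosome 11, 115415697 to 115419919), which encodes subunit d of the peripheral stalk, was at 369, 404 and 436 CPM in the WT pools and 323 and 348 CPM in C2KO pools 740 and 2445. Its log2 fold change was -0.27 (SE 0.10, unadjusted p = 0.0378, edgeR adjusted p = 0.465), short of the threshold. WT pool 3 was the highest WT pool, as for most members, while the C2KO pools were the lowest. Fibres ran from 300 to 594 CPM in WT and from 253 to 438 CPM in C2KO, with medians of 395 and 325 CPM. Within run 0092, however, its C2KO fibre was at 438 CPM, inside the WT range of 344 to 528 CPM.

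The c-ring of ATP synthase is made of identical copies of a proteolipid whose mature form is the same from 3 genes. Atp5g3 gave 52.6%, 49.7% and 49.2% of their summed TPM in WT and 51.8% and 51.1% in C2KO, Atp5g1 between 38.4% and 41.7% in any pool, and Atp5g2 between 8.09% and 10.04%. Atp5g3 was at 464, 418 and 496 CPM in WT and 572 and 537 CPM in C2KO (0.27 with an SE of 0.10, edgeR adjusted p = 0.458), and Atp5g1 at 406, 420 and 492 CPM in WT and 531 and 498 CPM in C2KO (0.23 with an SE of 0.11, edgeR adjusted p = 0.524). Neither overlapped. Atp5g2 was at 70.9, 64.5 and 90.3 CPM in WT and 79.8 and 89.1 CPM in C2KO, which overlapped (0.17 with an SE of 0.16, edgeR adjusted p = 0.748).

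With each of the 47 fibres taken as a replicate, which ignores that fibres share mice and runs and makes p-values too small, more members passed on the adjusted p alone. Of the 88 members, 30 were higher, where 9.39% of all genes in that test were, and 2 were lower, Atp5h and Atp5sl, where 8.93% of all were. None of these was past a 1.5-fold difference. The 30 held 7 members of complex IV, 13 of complex I, 5 of complex V, 3 of complex III, Sdhc and Cycs. With run added as a term, which rests the genotype on the single C2KO fibre of run 0092, the median log2 fold change of the members was 0.40 and the lowest edgeR adjusted p was 0.0582.

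Fibres were also split by sex-linked counts, after the data were seen. In WT, 15 fibres held Y-linked but not Xist counts above 10, and their summed members had a median of 31734 CPM. For the 11 fibres with the reverse the median was 30662 CPM, and the ranges, 24925 to 37509 and 27622 to 42922 CPM, overlapped. All 10 fibres of pool 740 held Y-linked counts and all 10 of pool 2445 Xist counts, while each WT pool held fibres of both kinds and so of more than 1 mouse. The study's text speaks of fibres from male mice, whereas Xist counts were found in both genotypes. The C2KO pools thus differed in sex as well as in prefix, and these cannot be told apart. For complex IV the WT medians were 5911 and 5780 CPM.

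No regulator of mitochondrial biogenesis passed the test. Of 20 listed genes 19 were tested and edgeR called 0, 7 were above 0 and 12 below, and their median log2 fold change was -0.02. None had an unadjusted p under 0.05, where 6.2% of all tested genes were higher and 4.13% lower. Ppargc1a, the coactivator PGC-1alpha that drives respiratory gene expression, was at 49.5, 51.4 and 51.9 CPM in WT and 53.5 and 50.0 CPM in C2KO (0.02 with an SE of 0.09, edgeR adjusted p = 0.954). Ppargc1b (-0.02 with an SE of 0.16, edgeR adjusted p = 0.979), the nuclear receptor gene Esrra (0.09 with an SE of 0.15, edgeR adjusted p = 0.865), Nrf1 (-0.13 with an SE of 0.14, edgeR adjusted p = 0.768), Gabpa (-0.03 with an SE of 0.11, edgeR adjusted p = 0.952) and Perm1 (-0.06 with an SE of 0.11, edgeR adjusted p = 0.892) all had overlapping pools. Sirt1, a deacetylase of PGC-1alpha and the highest of the list above 10 CPM, was at 11.9, 6.28 and 9.98 CPM in WT and 16.7 and 11.4 CPM in C2KO (0.58 with an SE of 0.29, edgeR adjusted p = 0.543), and overlapped as well. Tfam, which packages and transcribes mitochondrial DNA, was at 31.9, 29.9 and 30.1 CPM in WT and 28.4 and 32.5 CPM in C2KO (-0.01 with an SE of 0.10, edgeR adjusted p = 0.986).

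Of 47 assembly factors outside the prefixes, 43 were tested and edgeR called 0. At an unadjusted p under 0.05, 2 were higher and 1 lower, where 6.2% and 4.13% of all tested genes were. Their log2 fold changes were above 0 in 29 and below in 14, with a median of 0.05. Uqcc1, an assembly factor of complex III, was the highest of those with at least 10 CPM, at 71.4, 81.7 and 75.2 CPM in WT and 117 and 85.4 CPM in C2KO (0.41 with an SE of 0.15, edgeR adjusted p = 0.458). Acad9, which assembles complex I together with Ndufaf1, was the lowest, at 13.9, 14.02 and 12.8 CPM in WT and 11.6 and 8.45 CPM in C2KO (-0.44 with an SE of 0.16, edgeR adjusted p = 0.457). In the pools these partners thus lay on opposite sides. Within run 0092, however, the C2KO fibre was at 15.7 CPM for Acad9, inside the WT range of 8.26 to 18.7 CPM (median 12.1). The 18 genes of ATP export and mitochondrial membranes were all tested, with 0 called by edgeR, 12 above 0, 6 below and a median of 0.06. At an unadjusted p under 0.05, 2 of the 18 were higher and none lower, where 6.2% and 4.13% of all tested genes were. They ran from Mfn2, a mitofusin, at -0.19 (SE 0.09, edgeR adjusted p = 0.522) to Slc25a5, a carrier that exchanges ADP for ATP, at 0.61 (SE 0.16, edgeR adjusted p = 0.412).

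The median of the slow and oxidative fibre markers was below 0, on the other side from the respiratory chain. Of 12 listed genes 6 were tested, 2 above 0 and 4 below, with a median of -0.09 and 0 called by edgeR. At an unadjusted p under 0.05, 2 were lower, Mb and Myh2, where 4.13% of all tested genes were, and none was higher, where 6.2% were. Mb was at 64.1, 87.2 and 86.1 CPM in WT and 41.9 and 64.0 CPM in C2KO (-0.58 with an SE of 0.22, edgeR adjusted p = 0.462), and Myh2, the type IIa myosin, at 208, 174 and 133 CPM in WT and 137 and 82.7 CPM in C2KO (-0.64 with an SE of 0.26, edgeR adjusted p = 0.480). Within run 0092 the C2KO fibre was inside the WT range for both genes. It was at 113 CPM for Mb (WT 48.7 to 151 CPM, median 69.6) and at 118 CPM for Myh2 (WT 111 to 173 CPM, median 128). Of the 6, Mb alone had both C2KO pools below all WT pools, where 14.5% of all tested genes did. Another 1 of them had both above, where 13.1% did, and Myh2 overlapped. The slow calcium pump gene Atp2a2 was the highest of that list among genes with at least 10 CPM, at 0.18 (SE 0.20, edgeR adjusted p = 0.804), and its pools overlapped. Of the 9 fast type IIb markers, all tested, 7 were above 0 and 2 below, with a median of 0.08, 0 called by edgeR and none at an unadjusted p under 0.05, and Myh4 was at 68262, 60890 and 66902 CPM in WT and 67799 and 73778 CPM in C2KO (0.12 with an SE of 0.09, edgeR adjusted p = 0.694). The fast markers ran from -0.16 (SE 0.12, edgeR adjusted p = 0.678) for Atp2a1, the fast calcium pump, to 0.16 (SE 0.09, edgeR adjusted p = 0.587) for Tnnt3, fast troponin T.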

How the data were processed

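RNA was measured in 47 single EDL fibres, 27 WT and 20 C2KO, grouped by the labels. Per the file headers, the authors deposited raw counts of read pairs per gene from featureCounts with strand option 2, without multimapping pairs or pairs that overlap several genes. The submitters' processing notes name featureCounts 1.5.2, HISAT2 2.0.5, CASAVA 1.4 and the build mm10. Exon overlaps and named pseudogenes were read from the gene models and RefSeq.

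Counts were summed into 3 WT and 2 C2KO pools by sequencing run (WT) and fibre-name prefix (C2KO), scaled by TMM and tested with edgeR 4.0.16 (R 4.3.3; filterByExpr, quasi-likelihood test, Benjamini-Hochberg over 12863 genes), and called where the adjusted p was below 0.05 and the difference over 1.5-fold. TPM used the exon lengths in the files. The steps were tested on simulated data. Depth was 7648762 to 14606631 counts a fibre, so counting error is small for most members and the number of pools limits precision. Members, gene lists and tests were chosen with earlier results of these data known.

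Genes named were, per complex, the 2 highest per length and the highest and lowest log2 fold change of at least 10 CPM, the tissue isoforms, complex II, Cyc1, Cycs, listed regulators and the extremes of each described list. Lists covered assembly factors, biogenesis regulators, membrane partners, mitochondrially encoded subunits, fibre types and 7 other cell types. Alternatives were other scalings (RLE, upper quartile, library size, TPM), no filter, no fold threshold, DESeq2 1.42.0, limma-voom (limma 3.58.1), each pool left out, fibres as replicates with and without run, structural subunits alone, Ndufa4 in complex IV, and, after seeing the data, no fibre s59_17717.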

Additional observations from a re-analysis of the deposited data

Results flagged for a closer look

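Fibre s59_17717 of WT pool 2 stood apart from the other 9 fibres of its pool in 9 of the 80 checks of one group's highest or lowest fibre (12 checks marked a fibre, and chance marks about 1 in 20). Its complex IV sum was 10023 CPM with the next fibre at 5982 CPM, its complex I sum 13690 CPM (next 10636 CPM) and its sum over all members 42922 CPM (next 34182 CPM). Among single genes it was at 4166 CPM for Cox6a2 (next 1990 CPM), 869 CPM for Cox5a (next 577 CPM), 823 CPM for Cox8b (next 566 CPM), 594 CPM for Atp5h (next 432 CPM), 384 CPM for Cox7a2 (next 248 CPM) and 273 CPM for Cycs (next 222 CPM). These checks share 1 library. The fibre was at 28821 CPM for Myh4 and at 108 CPM for Mb.

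In C2KO pool 740, fibre s740-5 was at 19.9 CPM for Cox6a1 (next 10.1 CPM) and also had the highest sum of fibroblast, endothelial and pericyte markers, whose part was not tested. Fibre s740-12 was low for Cox6a2, at 1311 CPM with the next at 2085 CPM. In C2KO pool 2445, fibre s2445-11 was high for Cox6a2, at 3518 CPM with the next at 2706 CPM.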

How the results depend on the processing

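No respiratory chain gene was called at a 1.5-fold difference under any alternative. The medians of complexes I to V and of all members were above 0 under every alternative run. With each pool left out in turn, the medians ran from 0.08 to 0.16 over all members, 0.05 to 0.15 for complex I, 0.04 to 0.13 for complex II, 0.08 to 0.16 for complex III, 0.19 to 0.30 for complex IV and 0.07 to 0.19 for complex V. With run as a term they were 0.40 over all members and 0.38, 0.38, 0.54, 0.45 and 0.33 for complexes I to V, resting on 1 C2KO fibre, and complex III was then above complex IV. Members separated upwards numbered 14 by library size and 9 in TPM, and 28 to 61 with a pool left out (61 without WT pool 3, 53 without C2KO pool 740), where 16.6% to 31.1% of all tested genes were, against 13.1% with all pools. Those separated downwards numbered 3 by library size, 6 in TPM and 1 to 7 with a pool left out, where 18.7% to 32.8% of all tested genes were. Over all genes, 6 were called, 11 with no filter, 197 by DESeq2, 481 and 471 with fibres as replicates (edgeR and limma-voom), 38 with run as a term, 2 without fibre s59_17717 and 1 to 358 with a pool left out (358 without C2KO pool 2445).

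Some log2 fold changes turned sign. By library size, Sdhd was at -0.0044 and Atp5b at -0.0061. With each pool left out in turn, the values ran from -0.22 to 0.048 for Ndufa2, -0.014 to 0.11 for Sdha, -0.073 to 0.062 for Sdhd, -0.057 to 0.10 for Cyc1, -0.0023 to 0.40 for Cox6a2, -0.10 to 0.017 for Cox7a2l, -0.0032 to 0.023 for Atp5b, -0.026 to 0.079 for Ppargc1a, -0.24 to 0.17 for Ppargc1b, -0.0023 to 0.23 for Esrra, -0.12 to 0.065 for Gabpa, -0.10 to 0.088 for Tfam and -0.14 to 0.0044 for Perm1. With run as a term, Ndufa2 was at 0.22, Cox6a2 at -0.11, Atp5h at 0.025, Cox6a1 at -0.44, Cox8a at -0.50, Ppargc1a at -0.38, Gabpa at 0.15 and Perm1 at 0.21. With limma-voom on fibres, Cyc1 was at -0.0034 and Ppargc1b at 0.024, and without the 3 marker-rich fibres Cox8a was at -0.037 and Ppargc1b at 0.0075. The cause was not tested. No paired analysis was possible because no label pairs a WT animal or fibre with a C2KO one. The limits are 2 C2KO pools, runs nearly confounded with genotype, and fibres that no label ties to a mouse.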

Other observations

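Members with named pseudogenes in RefSeq numbered 9, with 4 for Atp5k, 3 for Cycs, 2 each for Atp5l and Uqcrh and 1 each for Cox5b, Ndufa12, Atp5c1, Atp5f1 and Ndufab1. Their counts came from uniquely mapped pairs alone. Exons of 9 members overlapped a gene on the opposite strand, the widest being Ndufa13, with 344 of 1249 exon bases (27.5%) shared with Tssk6, which had 92 counts. Counting by strand keeps such pairs of genes apart. Of the members picked by the naming rule, Cox6a2 shared 69 bases with Itgad, Ndufa2 60 bases with Tmco6 and Ndufa4l2 34 bases with Shmt2. Atp5j shared 123 bases with the regulator Gabpa.

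Other cell types left little RNA in most fibres. Macrophage markers summed to at most 4.401 CPM in a WT fibre and 18.4 CPM in a C2KO fibre, with Csf1r, C1qa and Ptprc at 0 in WT. Adipocyte markers summed to at most 0.332 CPM in WT and were at 0 in C2KO. Of the erythrocyte markers, 4 of 5 were at 0 in both genotypes. Satellite cell markers ran from 13.5 to 131 CPM over WT fibres and from 23.8 to 163 CPM over C2KO fibres. Pericyte and smooth muscle markers ran from 86.3 to 316 CPM in WT and from 139 to 321 CPM in C2KO, and Abcc9, also a potassium channel subunit of muscle fibres, made up most of that sum. Within the pools, the members' sum had a Spearman's rho of -0.92 to -0.02 with the summed fibroblast, endothelial and pericyte markers, over 7 to 10 fibres that share their library totals. In most fibres Abcc9 also made up most of this combined sum. Its fibre medians were 241 CPM in WT and 224 CPM in C2KO, against 4.45 and 1.41 CPM for the fibroblast markers. The rho is therefore not a relation to RNA of other cells alone.

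Beside the members, Usmg5, a small subunit of ATP synthase outside the prefixes, was at 198, 206 and 220 CPM in the WT pools and 258 and 235 CPM in the C2KO pools (log2 fold change 0.25 with an SE of 0.09, edgeR adjusted p = 0.458). Atpif1, the inhibitor of ATP synthase, was at 21.5, 20.2 and 22.6 CPM in WT and 22.6 and 22.7 CPM in C2KO (0.08 with an SE of 0.10, edgeR adjusted p = 0.812).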
